A study of Mus musculus with 19 samples.

Results

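The formative and primed state genes examined here are 7 genes whose rows were taken by name from a table of 21685 genes: Otx2, Pou3f1, Zic2, Sox3, Foxd3, Lef1 and Fgf5. They were measured by mRNA sequencing in cultured male C57BL/6 mouse embryonic stem cells, which are pluripotent cells derived from the early embryo. The cells differed in Trim71, an RNA-binding protein and ubiquitin ligase, and in Lin28a, which binds let-7 precursors and holds back this microRNA. The study compared 4 genotypes. Their names give the state of Trim71 and then of Lin28a: WT-WT (Trimfl/fl, Lin28afl/fl), KO-WT (Trim-/-, Lin28afl/fl), WT-KO (Trimfl/fl, Lin28a-/-) and KO-KO (Trim-/-, Lin28a-/-). WT in these names means floxed alleles, so that the control cells carry them as well. Trim71 was deleted with 500 nM 4-hydroxytamoxifen over 2 days and the cells grew for at least 7 further days; the labels give no treatment for the floxed cells. Cells of every genotype were kept in serum with leukaemia inhibitory factor and were selected for the surface antigen SSEA-1 on magnetic beads before harvest. The Lin28a-intact cells were clones 1 and E3 and the Lin28a-null cells clones 1-4 and C1, so a difference between Lin28a states and one between clones cannot be told apart. After 1 KO-WT library that equalled the mean of the others was left out, there were 4 WT-WT, 4 KO-WT, 5 WT-KO and 5 KO-KO libraries. Nothing in the labels says that they came from separate cultures beyond the clone and the harvest day, so the p-values measure the spread between these libraries.

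Pluripotent cells pass through successive states as the embryo implants. Naive cells, like those of the inner cell mass, use factors such as Esrrb, Klf4 and Tfcp2l1; formative cells shut these down and become competent to enter lineages; primed cells, like those of the later epiblast, start to express lineage genes. Otx2 is a homeodomain protein that redirects Oct4 to other enhancers on the way out of the naive state and also acts in visceral endoderm and forebrain. Pou3f1 (Oct6) is a POU factor of the epiblast and of neural progenitors. Zic2 is a zinc-finger protein of the epiblast and neural plate, Sox3 a relative of Sox2 in the same tissues, and Foxd3 a forkhead repressor needed for pluripotent cells and for the neural crest. Lef1 carries Wnt signals to DNA together with beta-catenin. Fgf5 is a secreted growth factor used as the standard marker of the formative epiblast.

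Loss of Lin28a is known to release let-7, so the let-7 sequences are shown with the part that pairs with targets. The RefSeq table (GRCm38.p6) holds 8 mature let-7 forms of the mouse, and they share 1 seed, bases 2 to 8, which is in capitals; 3 of them are printed.
mmu-let-7a-5p: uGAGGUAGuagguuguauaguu
mmu-let-7d-5p: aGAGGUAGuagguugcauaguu
mmu-let-7i-5p: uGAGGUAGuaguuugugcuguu
The complement of this seed in a transcript is CTACCTC. The letters were found in the longest annotated 3′ UTR (GENCODE M21, sense strand) of 0 of the 7 genes, whose 3′ UTRs ran from 588 bases in Foxd3 to 1599 bases in Pou3f1. Among the tested genes with an annotated 3′ UTR, 1528 of 12549 (12.2%) held the letters. The absence says only that these letters are not in this stretch.

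The RefSeq promoter table, which runs from 250 bases before each start site to 50 after it, gave 10 windows for 4 of the 7 genes (Fgf5, Otx2, Lef1 and Foxd3). Windows of Otx2 and Foxd3 are printed because these genes differed in opposite directions between the Lin28a states. A single capital is the annotated first base of the transcript, and the run of 6 capitals in Otx2 is the reverse complement of the OTX motif TAATCC.
Otx2 promoter, chr14:48665060-48665359, minus strand, GRCm38.p6: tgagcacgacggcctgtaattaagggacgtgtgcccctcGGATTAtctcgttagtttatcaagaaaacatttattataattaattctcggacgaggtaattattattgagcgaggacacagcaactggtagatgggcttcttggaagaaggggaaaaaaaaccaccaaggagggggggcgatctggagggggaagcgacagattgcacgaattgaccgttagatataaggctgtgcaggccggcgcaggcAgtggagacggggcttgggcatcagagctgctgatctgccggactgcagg
Foxd3 promoter, chr4:99656049-99656348, plus strand, GRCm38.p6: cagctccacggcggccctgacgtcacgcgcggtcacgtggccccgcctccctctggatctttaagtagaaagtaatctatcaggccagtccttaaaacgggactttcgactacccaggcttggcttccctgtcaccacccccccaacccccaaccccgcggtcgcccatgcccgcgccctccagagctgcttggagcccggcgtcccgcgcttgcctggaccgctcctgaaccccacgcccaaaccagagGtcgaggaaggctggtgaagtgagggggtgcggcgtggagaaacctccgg
The OTX match starts 211 bases before the start site of the printed Otx2 window. It was the one match in the 10 windows when 4 motifs were searched on both strands, and TAATCC stood in 7.06% of all 32851 windows of the table. The octamer ATGCAAAT, which POU factors bind, was in 1.74% of all windows, and the TCF/LEF motifs CTTTGAA and CTTTGAT were in 5.14% and 3.73%. The printed Otx2 window held 51.0% G and C with 16 CG dinucleotides and the Foxd3 window 65.7% with 25. The medians over all windows were 52.7% and 7. The other Otx2 windows, at other start sites, held 41.7%, 47.7% and 53.7% G and C, with 6, 8 and 11 CG dinucleotides. The table had no window for Pou3f1, Zic2 and Sox3.

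The genes lie on 5 chromosomes of GRCm38 (GENCODE M21; the build used by the authors is not given in the sources used here). Otx2 (ENSMUSG00000021848) is at chr14:48657677-48673819 on the minus strand and Zic2 (ENSMUSG00000061524) at chr14:122475435-122479852 on the plus strand. Pou3f1 (ENSMUSG00000090125) is at chr4:124656807-124660655 and Foxd3 (ENSMUSG00000067261) at chr4:99656299-99658622, both on the plus strand. Lef1 (ENSMUSG00000027985) is at chr3:131110471-131224356, Fgf5 (ENSMUSG00000029337) at chr5:98254184-98277030 and Sox3 (ENSMUSG00000045179) at chrX:60891366-60893430. The library kit does not mark strand. Where exons on opposite strands overlap, their reads can therefore not be told apart. The span of Lef1, introns included, shares 1620 bases with that of the antisense gene Gm43352, which was listed between 2.82 and 3.39. The span of Otx2 shares 5112 bases with Otx2os1 and that of Pou3f1 363 bases with Gm2164, 2 overlapping genes not analysed here. How much of these shared stretches is exon was not determined.

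All values below are log2 normalised expression as deposited, with differences between harvest days already removed, and a fold applies to that scale. Library depth is unknown, because the values carry no counts. Both targeted genes were lower where the labels say so: Trim71 lay between 8.77 and 9.55 in the 9 Trim71-null libraries and at 10.04 or more in the 9 intact ones. Lin28a lay between 8.21 and 8.57 in the 10 null libraries and between 9.74 and 10.26 in the 8 intact ones. The stem cell markers Pou5f1 (12.55 to 12.93), Sox2 (11.37 to 11.76) and Nanog (12.12 to 13.36) were high in every library. Fut4, also listed as a stem cell marker, was at 2.66 to 3.41, near the low-value limit of 10 units (log2 3.32).

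Of the 7 genes, 6 passed the filter of 10 units in at least 4 libraries and were tested with 14988 genes in all. Fgf5 did not: its 18 values ran from 1.03 to 1.23, its mean stood at percentile 12.1 of all genes in the table, and it reached the limit in 0 libraries. Sox3 was close to the limit, with 13 of 18 libraries at or above it and values from 3.10 to 3.58. Per kilobase of the longest annotated transcript, the mean log2 level over the 18 libraries was 5.69 for Foxd3, 5.64 for Zic2, 4.32 for Pou3f1, 3.47 for Otx2, 3.05 for Lef1, 2.30 for Sox3 and -0.21 for Fgf5. The order of neighbours varied with genotype. Per kilobase, Zic2 stood at 5.43 ± 0.197 (SD, n = 4) in WT-WT beside 5.31 ± 0.112 for Foxd3, a gap within the spread. In KO-WT the order was turned, with 5.09 ± 0.140 for Zic2 and 5.67 ± 0.199 for Foxd3 (SD, n = 4). Otx2 stood above Lef1 in WT-WT, at 4.04 ± 0.180 against 2.78 ± 0.402 per kilobase (SD, n = 4), while in KO-KO their levels of 2.93 ± 0.148 and 3.10 ± 0.367 (SD, n = 5) did not differ beyond their spread.

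**Figure D1:**
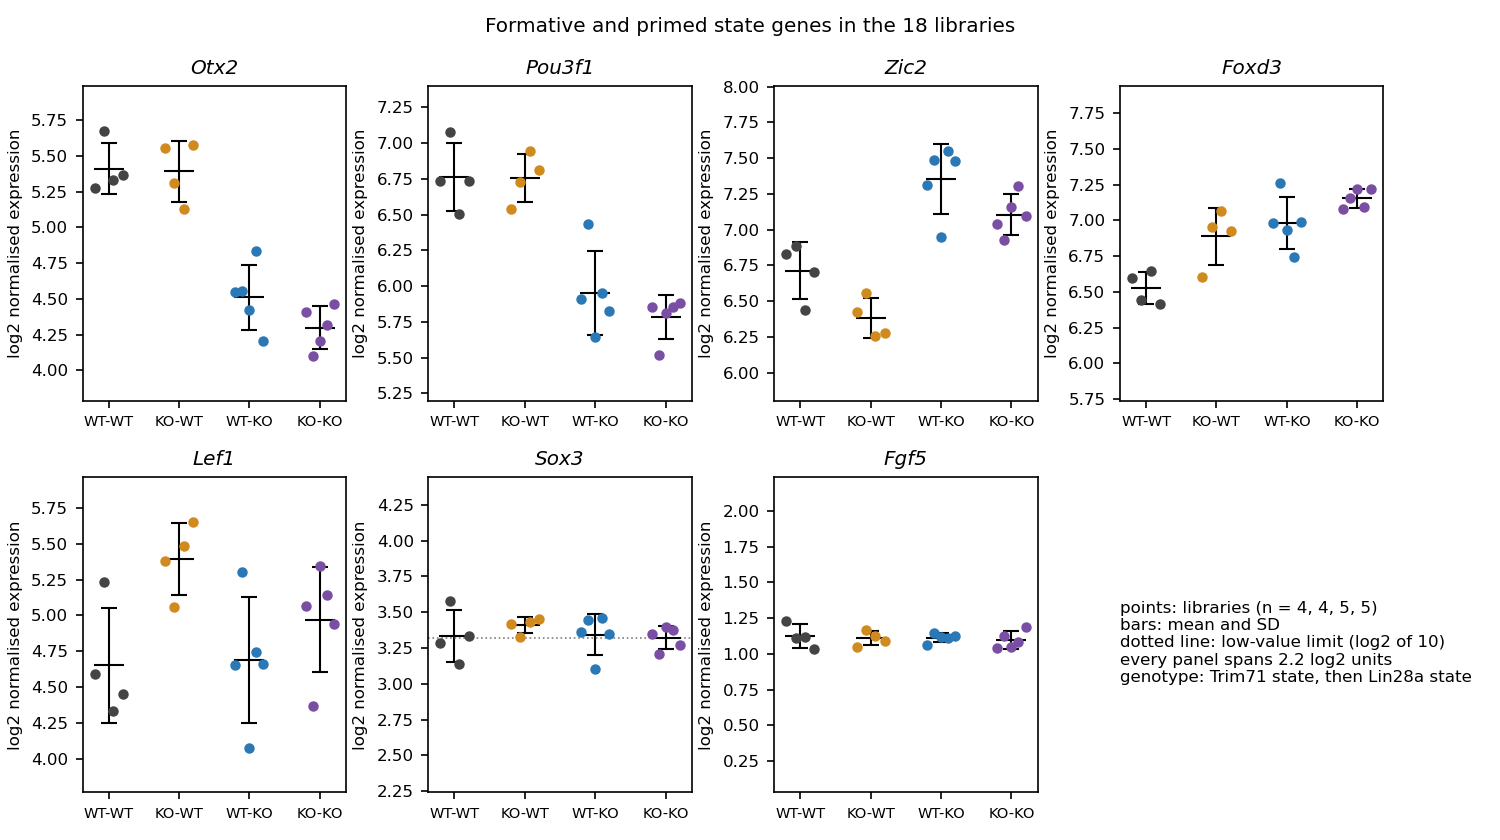
Log2 normalised expression (y axis) of each gene in the 4 genotypes (x axis); points are libraries (4 WT-WT, 4 KO-WT, 5 WT-KO, 5 KO-KO), bars are mean and SD, and the dotted line is the low-value limit, log2 of 10. Otx2 and Pou3f1 are lower and Zic2 is higher in both Lin28a-null genotypes without overlap, while Fgf5 stays between 1.03 and 1.23.

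The first question is how these genes differed between the Lin28a states, which are also different clones, while Trim71 was present. Otx2 and Pou3f1 were lower and Zic2 and Foxd3 higher in the Lin28a-null cells, while Lef1 and Sox3 were not called. Otx2 was 1.86-fold and Pou3f1 1.75-fold lower in WT-KO than in WT-WT, and Zic2 was 1.56-fold and Foxd3 1.37-fold higher. So 4 of the 6 tested genes passed an adjusted p of 0.05 in limma, against 42.4% of all genes tested. The background is high in this comparison, in which 20.3% of all genes tested were called higher and 22% lower.

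Otx2 was at 5.27, 5.67, 5.33 and 5.37 in the 4 WT-WT libraries and at 4.55, 4.55, 4.42, 4.84 and 4.21 in the 5 WT-KO libraries. Every WT-KO library lay below every WT-WT library, and the difference was -0.90 ± 0.136 (SE) with an adjusted p of 7.27e-05. On the 4 days with both genotypes it ranged from -1.25 to -0.50. Pou3f1 was at 6.74, 7.08, 6.50 and 6.73 in WT-WT and at 5.91, 6.43, 5.64, 5.95 and 5.83 in WT-KO. The groups did not overlap, although WT-KO replicate 2 came close to the lowest WT-WT library. The difference was -0.81 ± 0.150 (SE), adjusted p = 0.000445, with 4 of 4 days in the same direction.

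Zic2 went the other way. Its values were 6.83, 6.89, 6.44 and 6.70 in WT-WT and 7.31, 7.49, 6.95, 7.55 and 7.48 in WT-KO. All WT-KO libraries lay above WT-WT, with WT-KO replicate 3 lowest among them, and the difference was 0.64 ± 0.128 (SE), adjusted p = 0.000817. It was positive on 4 of 4 days, by 0.06 on day 3 and by 1.11 on day 4. Foxd3 was at 6.59, 6.44, 6.64 and 6.42 in WT-WT and at 6.98, 7.26, 6.93, 6.75 and 6.99 in WT-KO. These groups did not overlap either, and the difference was 0.46 ± 0.106 (SE), adjusted p = 0.00254. The Foxd3 difference was 0.43 with only clones E3 and C1 in the fit and was then not called (adjusted p = 0.112).

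Lef1 and Sox3 showed no difference that passed the test. Lef1 was at 4.59, 5.23, 4.33 and 4.45 in WT-WT and at 4.66, 5.31, 4.07, 4.75 and 4.66 in WT-KO. The groups overlapped throughout, and the difference was 0.04 ± 0.245 (SE), adjusted p = 0.919; this SE leaves room for sizeable changes either way. Sox3 ran from 3.14 to 3.58 in WT-WT and from 3.10 to 3.46 in WT-KO, a difference of 0.01 ± 0.0957 (SE), adjusted p = 0.950. Over the 6 tested genes the median difference was 0.02, beside -0.01 over all genes tested.

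Among Trim71-null cells, Otx2, Pou3f1 and Zic2 differed between the Lin28a states in the same directions. The clones are those of the comparison above, so the 2 comparisons are not independent. With KO-KO set against KO-WT, 3 of the 6 tested genes were called, against 42.8% of all genes tested (20.8% higher, 22% lower). Otx2 was at 5.55, 5.31, 5.13 and 5.58 in KO-WT and at 4.41, 4.10, 4.21, 4.32 and 4.47 in KO-KO. The groups were well apart, by -1.09 ± 0.136 (SE) or 2.13-fold, adjusted p = 1.03e-05. Pou3f1 was at 6.54, 6.73, 6.95 and 6.81 in KO-WT and at 5.85, 5.52, 5.81, 5.86 and 5.88 in KO-KO. Again no library of one genotype reached the other, and the difference was -0.97 ± 0.150 (SE), adjusted p = 8.69e-05. Zic2 was at 6.42, 6.56, 6.26 and 6.28 in KO-WT and at 7.04, 6.93, 7.16, 7.31 and 7.09 in KO-KO. All KO-KO libraries were higher, by 0.72 ± 0.128 (SE), adjusted p = 0.000297.

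Foxd3 stood just outside the threshold in this comparison. It was at 6.60, 6.96, 7.07 and 6.93 in KO-WT and at 7.08, 7.16, 7.22, 7.09 and 7.22 in KO-KO. The lowest KO-KO library lay barely above the highest KO-WT library, and the difference of 0.27 ± 0.106 (SE) had an adjusted p of 0.0523. It passed when any one of WT-KO replicate 2, WT-KO replicate 4 or KO-WT replicate 3 was left out (adjusted p = 0.0254, 0.0292 and 0.0215). Without KO-WT replicate 1, the lowest KO-WT library, it shrank to 0.13 (adjusted p = 0.306). With a trend of GC content and transcript length removed it was 0.45 (adjusted p = 0.000607). Lef1 was at 5.38, 5.06, 5.49 and 5.66 in KO-WT and at 5.06, 4.37, 5.34, 5.14 and 4.94 in KO-KO. The groups overlapped and the difference of -0.42 ± 0.245 (SE) was not called (adjusted p = 0.176). Fitted on these 2 genotypes alone it was -0.45 with an adjusted p of 0.0418. In clones 1 and 1-4 alone, which hold 1 KO-WT library, it was -0.70. With 1 of the 18 libraries left out, the difference ranged from -0.58, without KO-WT replicate 2, to -0.17, without KO-KO replicate 2. In the latter fit the adjusted p was 0.596. For Sox3 the difference was -0.09 ± 0.0957 (SE), adjusted p = 0.489.

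KO-KO cells, which lack both genes, differed from WT-WT in 4 of the 6 tested genes, against 45.6% of all genes tested (21% higher, 24.6% lower). This comparison shares its libraries with those above. Otx2 was 2.16-fold lower, a difference of -1.11 ± 0.136 (SE) log2 units (adjusted p = 7.83e-06), and Pou3f1 1.97-fold lower, a difference of -0.98 ± 0.150 (adjusted p = 7.44e-05). Foxd3 was higher by 0.63 ± 0.106 (adjusted p = 0.000182), with all 5 KO-KO libraries at 7.08 or more and no WT-WT library above 6.64. Zic2 was higher by 0.39 ± 0.128 (adjusted p = 0.0202), and this call was less firm. It was lost without WT-WT replicate 3 (0.27, adjusted p = 0.106), without KO-KO replicate 4 (0.32, adjusted p = 0.0683) and with only clones E3 and C1 (0.47, adjusted p = 0.126). Lef1 differed by 0.32 ± 0.245 (adjusted p = 0.305). It was called when the 2 genotypes were fitted alone (0.47, adjusted p = 0.0121) and in clones 1 and 1-4 alone (0.48, adjusted p = 0.0136). With 1 library left out it was not called and ranged from 0.17 without WT-WT replicate 3 to 0.58 without WT-WT replicate 2. Sox3 differed by -0.01 ± 0.0957 (adjusted p = 0.918).

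**Figure D2:**
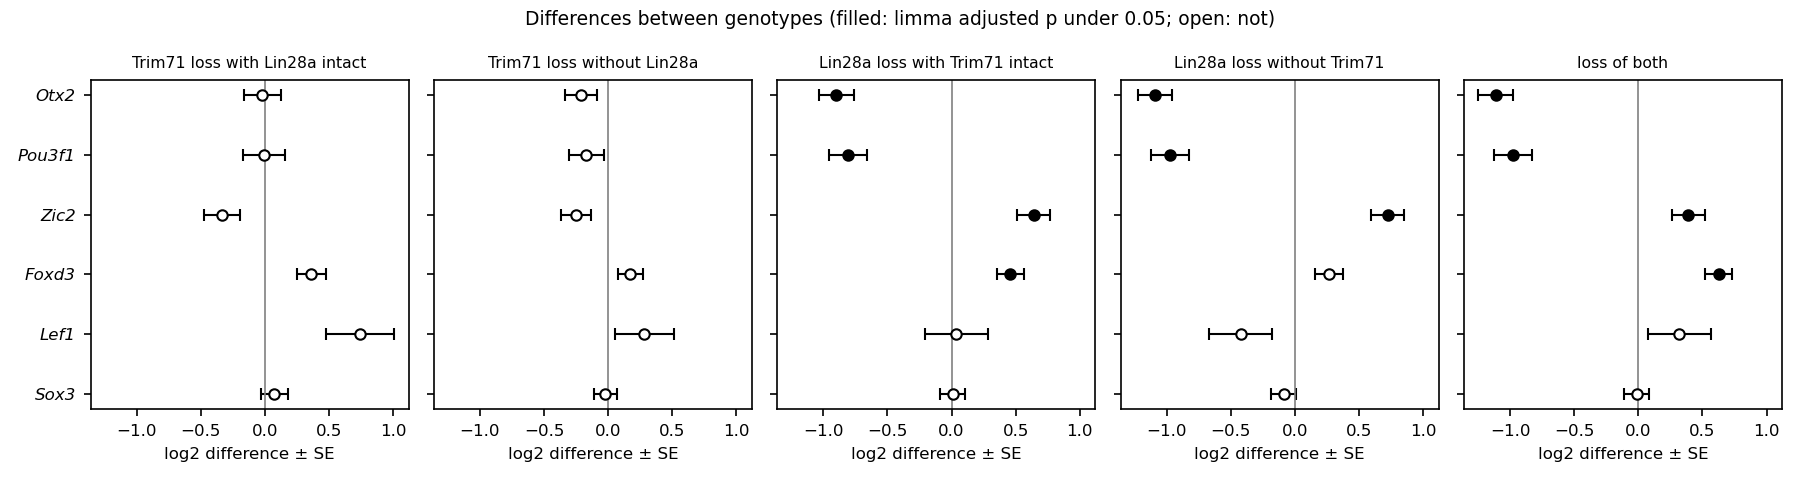
Log2 difference with its SE (x axis) for the 6 tested genes (rows) in 5 comparisons (panels); filled points passed a limma adjusted p of 0.05. Filled points appear in the 3 panels that compare Lin28a-null with Lin28a-intact cells, where Otx2 and Pou3f1 lie between -1.11 and -0.81.

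Loss of Trim71 was compared between genotypes that shared their clones, and 0 of the 6 tested genes were called in it, with or without Lin28a. The fit had no clone term. With Lin28a intact the clones were unevenly mixed. Clone 1 gave WT-WT replicates 1 and 4 but, of the KO-WT libraries used, replicate 4 alone. The backgrounds were 11.2% of all genes tested with Lin28a intact (4.74% higher, 6.43% lower) and 8.38% without it (4.26% higher, 4.12% lower). These shares rest on few libraries: leaving out 1 gave 3.52% (without WT-WT replicate 4) to 13.2% (without WT-KO replicate 3) with Lin28a intact and 4.51% (without WT-KO replicate 4) to 9.29% (without KO-WT replicate 3) without it. Fitted on the 2 genotypes compared alone, they were 0.2% and 5.3%. At an unadjusted p under 0.05 the limma fit gave 3 of the 6 genes with Lin28a intact (Foxd3, Lef1 and Zic2) and 1 without it (Zic2). Such a p was common: of all 14988 genes tested, 4376 had it with Lin28a intact and 3413 without it. Otx2 was at 5.41 ± 0.180 in WT-WT and 5.39 ± 0.212 in KO-WT (SD, n = 4), a difference of -0.02 ± 0.146 (SE), adjusted p = 0.947. Pou3f1 was at 6.76 ± 0.236 and 6.76 ± 0.170 (SD, n = 4), a difference of -0.01 ± 0.162 (SE), adjusted p = 0.981. These SEs leave room for modest changes either way.

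With Lin28a intact, Foxd3 was 0.36 ± 0.114 (SE) higher in KO-WT than in WT-WT, adjusted p = 0.0507. It was higher on 3 of 3 days with both genotypes, by 0.42 to 0.51, but KO-WT replicate 1, at 6.60 from a day with no WT-WT library, overlapped WT-WT. Foxd3 passed when KO-WT replicate 1, WT-KO replicate 2 or WT-KO replicate 4 was left out (adjusted p = 0.0102, 0.0156 and 0.0313). Over all libraries left out in turn its adjusted p reached 0.191 and the difference ranged from 0.28 to 0.47. The difference of Zic2 was -0.33 ± 0.138 (SE), adjusted p = 0.122, negative on 3 of 3 days, and it passed without WT-KO replicate 3 (adjusted p = 0.0429), with adjusted p up to 0.314 when other libraries were left out. Lef1 had the greatest difference of the 6 genes, 0.74 ± 0.265 (SE), adjusted p = 0.0771. Its 4 KO-WT values ran from 5.06 to 5.66, and 3 of the 4 WT-WT values from 4.33 to 4.59. The exception was WT-WT replicate 2 at 5.23, within the KO-WT range. The difference of Lef1 was 1.16 on day 4, 1.20 on day 5 and -0.18 on day 3, the day of WT-WT replicate 2. Without that library the difference was 1.03 (adjusted p = 0.0321), and without WT-KO replicate 2 or 3 its adjusted p was 0.0293 or 0.0435. Without WT-WT replicate 3 the difference was 0.59 (adjusted p = 0.242).

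Without Lin28a, the difference of KO-KO from WT-KO was -0.25 ± 0.118 (SE) for Zic2 (adjusted p = 0.219), negative on 4 of 5 days. Without WT-KO replicate 3 it was -0.39 and called (adjusted p = 0.0192), while leaving out other libraries gave adjusted p up to 0.482. Otx2 differed by -0.21 ± 0.125 (SE), adjusted p = 0.335, and Pou3f1 by -0.17 ± 0.139, adjusted p = 0.511. Foxd3 differed by 0.17 ± 0.0978 (adjusted p = 0.317) and Lef1 by 0.28 ± 0.227 (adjusted p = 0.501), each positive on 4 of 5 days. Day 2 stood out: the difference was -0.91 for Pou3f1 and -0.94 for Lef1 on that day, while Lef1 differed by 1.27 on day 3.

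**Figure D3:**
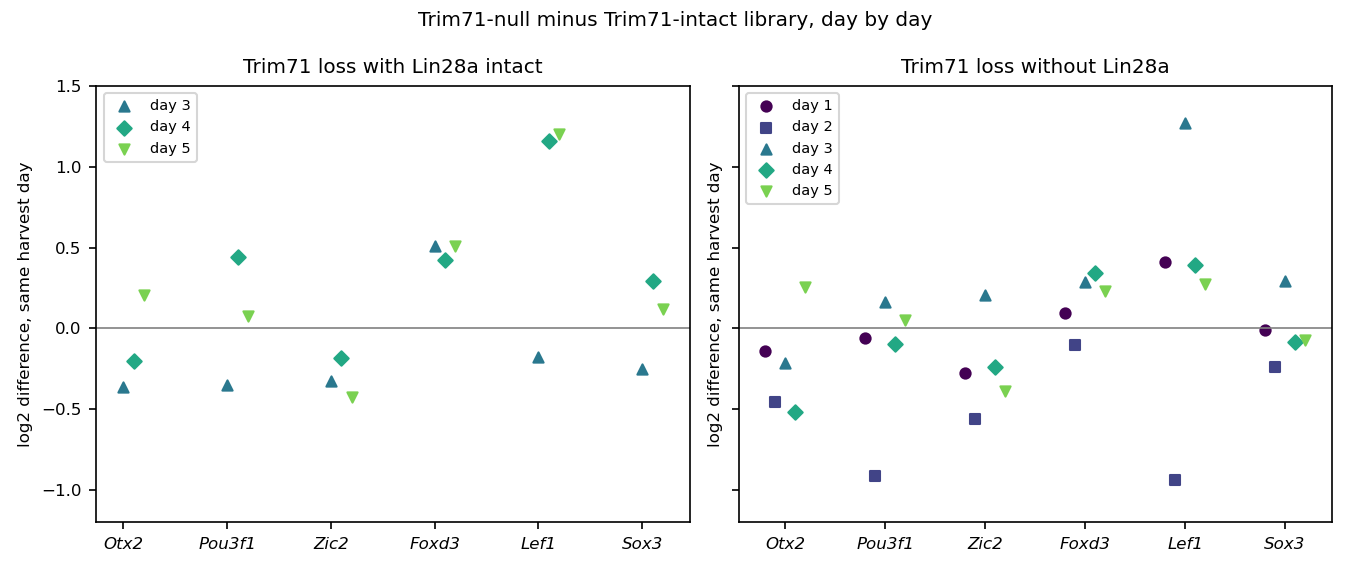
Log2 difference between the Trim71-null and the Trim71-intact library of the same harvest day (y axis) for the 6 tested genes (x axis), with Lin28a intact (3 days) and without Lin28a (5 days). Foxd3 lies between 0.42 and 0.51 in the left panel, and Lef1 ranges from -0.94 to 1.27 in the right panel.

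Whether Trim71 loss acted differently in the absence of Lin28a was tested as an interaction. In limma 0 of the 6 genes were called, against 0.02% of all genes tested (0% higher, 0.02% lower). An unadjusted p under 0.05 was found for 0 of the 6 genes, against 2256 of all 14988 tested. The interaction was -0.46 ± 0.349 (SE) for Lef1 (adjusted p = 0.530) and -0.19 ± 0.193 for Otx2 (adjusted p = 0.647). It was 0.08 ± 0.182 for Zic2, adjusted p = 0.865. Fgf5, fitted with no filter on low values, had differences from -0.03 to 0.00 in the 5 comparisons and the interaction, with adjusted p from 0.681 to 0.998.

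The 6 tested genes varied more between libraries of 1 genotype than the median gene tested, a comparison not matched for expression level. The residual SD was 0.445 for Lef1, 0.262 for Pou3f1, 0.230 for Otx2 and 0.222 for Zic2, against a median of 0.107 over all genes tested. Lef1 stood at percentile 99.8 of that measure, Pou3f1 at 98.3, Otx2 at 96.5, Zic2 at 95.9, Foxd3 at 88.3 and Sox3 at 76.9. A few libraries, picked out after their values were seen, carried several extremes at once. WT-WT replicate 2 was the highest of its genotype in 5 of the 6 genes (Otx2, Pou3f1, Zic2, Lef1 and Sox3), and KO-KO replicate 2 was the lowest of its genotype in 5 (Otx2, Pou3f1, Zic2, Lef1 and Sox3). WT-KO replicate 2 was highest in 3 genes (Pou3f1, Lef1 and Foxd3). WT-WT replicate 3 and WT-KO replicate 3 were each lowest in 4 (Pou3f1, Zic2, Lef1 and Sox3).

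Those 5 libraries came from clones E3 and C1 and from days 2, 3 and 4. All libraries of these days were of these clones and the reverse, so clone and day are the same split here. Since day differences had been taken out of the values, a high library on a day is offset by low ones of that day, so WT-KO replicate 2 and KO-KO replicate 2 (day 2), or WT-WT replicate 2 and WT-KO replicate 3 (day 3), are not independent. The summed level of 16 naive state genes was 14.17 in WT-WT replicate 2 and 14.70 in WT-KO replicate 2, the lowest of their genotypes. It was 14.26 in WT-WT replicate 3, 14.87 in WT-KO replicate 3 and 15.00 in KO-KO replicate 2, the highest of theirs. Its part in the spread of the 6 genes was not tested.

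Other genes of the same transition were taken from lists. Of 16 other formative genes 15 were tested, and on loss of Lin28a with Trim71 intact 3 were called higher, 6 lower and 6 not. The lower ones included the DNA methyltransferase genes Dnmt3a (-0.54, adjusted p = 0.000661) and Dnmt3b (-0.38, adjusted p = 0.00633) and their cofactor Dnmt3l (-0.71, adjusted p = 1.73e-05). Cdh2 (N-cadherin), Sall2 and Sox11 were called lower too, with differences of -0.30, -0.43 and -0.25. The higher ones were Etv5 (0.36, adjusted p = 2.10e-05), a factor downstream of FGF signals, Zic5 (0.63, adjusted p = 3.46e-05) and Utf1 (0.22, adjusted p = 0.0238). The list's median was -0.11, beside -0.01 over all genes. Without Trim71, loss of Lin28a gave 3 higher and 9 lower of the 15, with a median of -0.27. Loss of Trim71 gave 3 higher and 1 lower with Lin28a intact and 2 higher and 3 lower without it. Etv4 (0.37 and 0.27) was called higher in both, and Zic5 (-0.56 and -0.28) lower.

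Of 12 genes of the primed state and the primitive streak, 9 had a row and 3 passed the filter (Eomes, Wnt3 and Wnt8a). The streak regulator T stayed between 2.26 and 2.66 and Mixl1 between 2.05 and 2.34, below the limit. On loss of Lin28a with Trim71 intact, 0 were called higher and 2 lower, the ligand genes Wnt3 (-0.41, adjusted p = 0.00475) and Wnt8a (-0.42, adjusted p = 0.00160). Wnt8a was lower also on loss of Trim71 with Lin28a intact (-0.42, adjusted p = 0.0162).

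Of 16 naive state genes, all tested, 14 were called higher and 0 lower on loss of Lin28a with Trim71 intact, with a median of 0.56. Nanog was higher by 0.86 (adjusted p = 3.44e-07), the nuclear receptor gene Esrrb by 0.63 (adjusted p = 1.27e-08), Klf4 by 0.61 (adjusted p = 1.79e-06) and Prdm14 by 0.71 (adjusted p = 1.19e-06). Gbx2 (-0.24, adjusted p = 0.123) and Zfp42 (-0.03, adjusted p = 0.690) were not called. Without Trim71, loss of Lin28a gave 13 higher and 1 lower (Gbx2, -0.68), with a median of 0.55. Loss of Trim71 gave 6 higher and 1 lower with Lin28a intact (median 0.11). It gave 6 higher and 2 lower without Lin28a (median 0.16). Over all genes tested, 4.74% were called higher and 6.43% lower with Lin28a intact, and 4.26% and 4.12% without it.

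The partners of Lef1 and the receptors for Fgf ligands were read as well. Of 5 genes for TCF factors and beta-catenin signalling, Tcf7 (0.30) and Tcf7l1 (0.38), which encodes a repressor of the naive network, were called higher and Ctnnb1 (-0.13), for beta-catenin, lower on loss of Lin28a with Trim71 intact. Axin2, a target of Wnt signals, was -0.24 (adjusted p = 0.0772) on loss of Trim71 with Lin28a intact and -0.28, which passed the test (adjusted p = 0.0272), without Lin28a. Of the 4 FGF receptor genes, Fgfr2 (-0.76, adjusted p = 2.74e-07) and Fgfr1 (-0.25, adjusted p = 0.000563) were lower on loss of Lin28a with Trim71 intact, and Fgfr3 and Fgfr4 were not called. Of 14 paralogues of the 7 genes 10 had a row and 4 were tested. Of these Zic5 (0.63) and Sox2 (0.21) were called higher on loss of Lin28a with Trim71 intact, while Sox1 (0.09) was not called.

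Markers of other cell types differed between the Lin28a states. Within each Lin28a state, summed levels also did not overlap between Trim71 states for 2 of these cell type lists. Those of primitive endoderm markers were higher and those of neural markers lower in Trim71-null cells. The sums of the naive state genes did not overlap either and were higher in Trim71-null cells. They ranged from 14.17 to 14.26 in WT-WT and 14.28 to 14.36 in KO-WT. In WT-KO they ranged from 14.699 to 14.869 and in KO-KO from 14.871 to 14.997. The sums were not tested. Of 8 primitive endoderm markers 7 were tested and 7 were called lower on loss of Lin28a with Trim71 intact (median -1.52), among them Gata6 (-1.34) and Gata4 (-1.60). Their summed level ranged from 11.40 to 11.73 in WT-WT, 11.75 to 12.15 in KO-WT, 10.16 to 10.58 in WT-KO and 10.66 to 11.05 in KO-KO. Of 8 trophectoderm markers 6 were tested and 5 called lower (median -3.03), with summed levels of 12.14 to 12.55, 12.14 to 12.43, 10.06 to 10.34 and 9.88 to 10.21 in the same order. Elf5, a defining trophoblast gene, was low throughout (0.77 to 1.02), and Cdx2 was between 1.94 and 3.13. Of 10 neural markers 6 were tested, and Map2, Pax6 and Tubb3 were called higher and Nes and Neurod1 lower. Their summed levels were 9.65 to 9.79 in WT-WT, 9.43 to 9.52 in KO-WT, 9.80 to 10.02 in WT-KO and 9.65 to 9.70 in KO-KO. Of 6 neural crest markers 1 was tested (Ets1, -1.34), and Sox10 (1.99 to 2.34) and Sox9 (0.71 to 0.91) were low. The list sums spanned 5.95 to 7.46, 6.03 to 7.42, 5.23 to 5.58 and 5.05 to 5.83. Of 8 fibroblast markers 3 had a row and were tested, with 2 lower and sums of 6.54 to 6.88, 6.45 to 6.61, 6.01 to 6.15 and 6.00 to 6.32. The part of these cell types in the differences of Otx2, Pou3f1, Zic2 and Foxd3 was not tested. In bulk RNA, fewer cells of a type and less RNA per cell cannot be told apart.

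**Figure D4:**
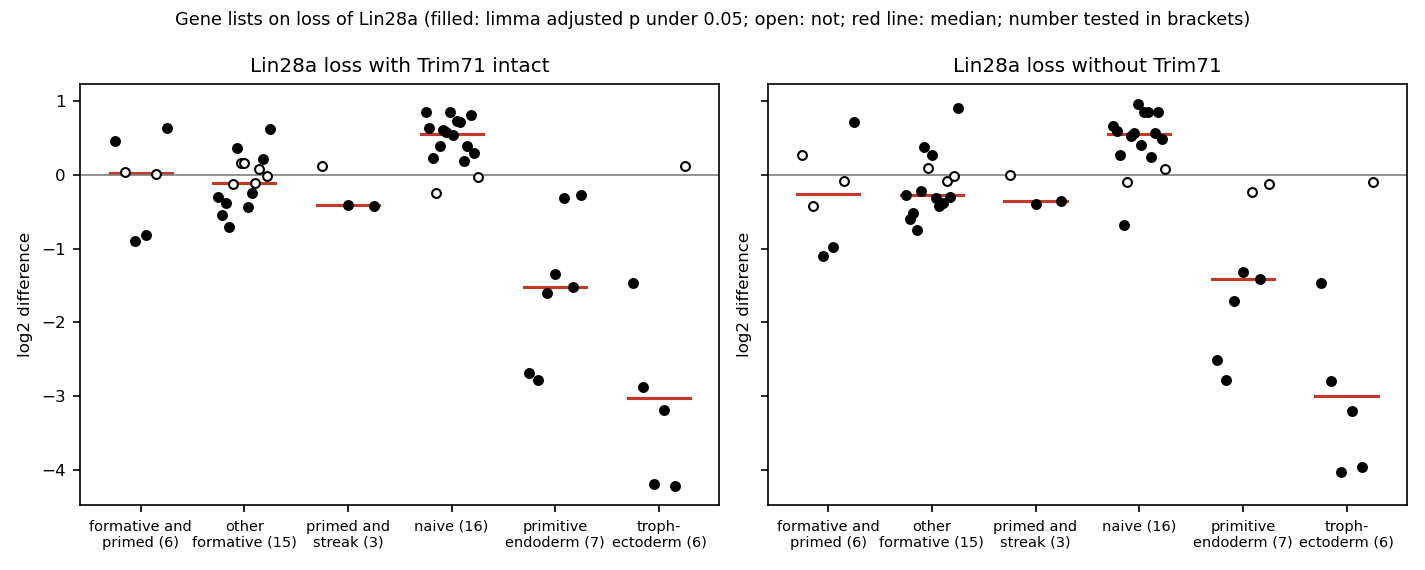
Log2 difference on loss of Lin28a (y axis) for the 6 tested formative and primed state genes and for genes of 5 other lists (x axis, number tested in brackets), with Trim71 intact and without Trim71; filled points passed a limma adjusted p of 0.05 and red lines are list medians. With Trim71 intact the medians are 0.02 for the 6 genes, -0.11 for other formative genes, 0.56 for naive genes, -1.52 for primitive endoderm and -3.03 for trophectoderm markers.

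Finally, the tested genes whose pattern over the 18 libraries was nearest to each of the 4 called genes were listed, by the root mean square difference after each gene was centred on its mean. For Otx2, whose own SD over the libraries was 0.529, they were Lrpap1 (0.127) and Serpinb9b (0.139). For Pou3f1 (SD 0.488) they were Foxi3 (0.141) and the Wnt receptor gene Fzd2 (0.172). For Zic2 (SD 0.404) they were Ina (0.124) and Zic5 (0.133), its neighbour on chromosome 14, with 9757 bases between them. For Foxd3 (SD 0.261) they were Kdm6b (0.103), for a histone demethylase, and Plxnb1 (0.106). Zic5 ran at 7.43 ± 0.106 in WT-WT, 6.86 ± 0.100 in KO-WT (SD, n = 4), 8.06 ± 0.168 in WT-KO and 7.77 ± 0.0847 in KO-KO (SD, n = 5). Unlike Zic2 it was called on loss of Trim71, and whether the 2 genes differ in that comparison was not tested.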

How the data were processed

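The series was read from 1 deposited table with 21685 rows (gene symbols) and 19 columns (libraries). The submitters' processing notes name CASAVA 1.8, STAR and DESeq2; versions of the last 2, the annotation, the genome build and the step that gave a log scale are not given in the sources used here. The deposited values are log2 normalised expression, as read from their range (-0.71 to 16.30, with 4126 of 412015 below 0); they are not counts, and no count test was run. The library sums of 2 to the value (7297919 to 7677445 units) are not read depths, so depth is unknown, no counting interval is given, and precision rests on 4 or 5 libraries a genotype.

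The deposited values had had day differences removed: over all genes no fitted day term exceeded 1.3e-08. KO-WT replicate 5, the one library of its day, lay within 1.5e-08 of the mean of replicates 1 to 4 in every gene and was left out, which left 18 libraries. The labelled harvest day pairs libraries across genotypes, and checking this by correlation is void once day effects are removed.

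Genes with at least 10 units (log2 3.32) in at least 4 libraries were tested, 14988 in all (69.1%). Tests used limma 3.58.1 in R 4.3.3 (trended moderation) with genotype means and day terms; a gene is called where its two-sided Benjamini-Hochberg adjusted p over all genes tested is under 0.05. The 7 genes and the gene lists were chosen with earlier results of these data known. The text names all 7 genes, genes of the lists, and the 2 genes nearest in pattern to each called gene; 1 gene of the lists is not reported here by name. Sequences came from RefSeq tables (GRCm38.p6), positions, 3′ UTRs and transcript lengths from GENCODE M21. Alternatives covered the day term, filters, moderation, scaling, GC content and length, clones, days, genotypes fitted and each library left out.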

Additional observations from a re-analysis of the deposited data

Results flagged for a closer look

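Among 28 sets of values (7 genes in 4 genotypes), 1 held a library that stood apart from the rest of its genotype. Pou3f1 in KO-KO replicate 2 was 5.52, with the nearest of the other 4 libraries at 5.81, and this gap was 0.800 of the whole range. Chance alone marks about 1 in 20 sets in this way. The same library was the lowest of its genotype in 5 of the 6 tested genes. Without it the difference of Pou3f1 on loss of both genes stayed called.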

How the results depend on the processing

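Each result was recomputed in up to 30 other ways. In the comparisons between Lin28a states, the calls of Otx2 and Pou3f1 held in every fit that tested them (Otx2 did not pass the stricter filter of 50 units), as did those of Zic2 on loss of Lin28a with or without Trim71. The adjusted p of Otx2 with Trim71 intact reached at most 0.00561 and that of Pou3f1 at most 0.0472. The count of the 6 genes called on loss of Trim71 with Lin28a intact, 0 with the day term, was 3 with no replicate block (Foxd3, Lef1 and Zic2). That fit called 28.1% of all genes tested and counts degrees of freedom the removal of day effects had used up. The count was 1 each with the stricter filter, 75th percentile scaling, trimmed mean scaling and the GC content and length trend removed. These fits called 15.1%, 11.9%, 11.7% and 7.43% of all genes tested. On the 3 days with all 4 genotypes it was 1, with 3.16% of all genes called. In clones 1 and 1-4 alone, which hold 1 KO-WT library, the Lef1 difference was 1.18. With 1 library left out the count ranged from 0 to 2. It was 2 without WT-KO replicate 2 or 3 (11.2% and 13.2% of all genes called). It was 1 without WT-WT replicate 2, WT-KO replicate 4 or KO-WT replicate 1 (6.67%, 13.1% and 9.67%). The count on loss of Trim71 without Lin28a ranged from 0 to 1 with 1 library left out (4.51% to 9.29% of all genes called). On loss of Lin28a without Trim71 it was 5 when the 2 genotypes compared were fitted alone (43% of all genes called). With 1 library left out it was 3 to 4 (35.9% to 44%). For loss of Lin28a with Trim71 intact it was then 4 throughout (35.9% to 43.7%). It was 3 to 4 for loss of both (38.4% to 46.8%) and 0 throughout for the interaction (0% to 0.0267%). No called difference changed sign. Unknown depth limits what can be said of Fgf5 and Sox3.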
